A study of Mus musculus with 65 samples.

Results

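The first return of microglial transcripts to the retina was followed between day 7 and day 10 of repopulation, by comparing the 4 REPOP10 mice with the 6 REPOP7 mice. These 10 retinas belong to a series of 65 mice, and they were chosen by their labels alone. All were adult wild-type C57BL/6J mice without a transgene. They had been fed PLX5622, an inhibitor of the kinase CSF1R, for 14 days and were then returned to control diet, on which REPOP7 mice stayed 7 days and REPOP10 mice 10 days. The control group stayed on control diet throughout (CD, 5 mice, of which 1 carries the mark 2M in its description), and DEP14 (4 mice) was taken at the end of the 14 days of PLX5622, before any return to control diet. RNA came from whole retinal homogenate, so microglial transcripts were measured within the RNA of all retinal cells, and fewer microglia cannot be told apart from less RNA per microglial cell. Sample titles end in RE or re, which are called suffixes here because the labels do not say what they mark. REPOP7 replicates 1 to 3 carry re and replicates 4 to 6 carry RE, while REPOP10 replicate 1 carries re and replicates 2 to 4 carry RE. The 2 suffixes stood apart across all genes, and the first principal component, with 67.1% of the variance, held the 4 re mice between 23.4 and 27.7 and the 6 RE mice between -27.3 and 3.02, so the suffix was a term of the comparison. The total count per library lay between 7497427 and 8417282 reads, and a count of 3 reads was between 0.356 and 0.4001 CPM (counts scaled to a common library size) in these libraries. The photoreceptor gene Rcvrn marked the tissue as retina, at 859.9 ± 68.6 FPKM (fragments scaled to gene length and depth, mean ± SD) in REPOP7 and 994.6 ± 74.5 FPKM in REPOP10.

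Microglia are the resident macrophages of the retina and brain. They depend on signalling through CSF1R, the receptor for the growth factors CSF1 and IL-34, and they are lost when it is blocked. In the resting state they carry the surface proteins P2RY12, TMEM119, CX3CR1 and SIGLECH, secrete the C1q subunits of the classical complement cascade, and are rich in lysosomal proteins such as cathepsin S. The transcription factor PU.1 drives much of this programme.

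Of 102 genes in 7 lists of myeloid function, 52 had a CD mean of at least 1 CPM. Of these, 11 had a DEP14 mean of at most 25% of the CD mean, and they are called microglia-dependent below. They were Cx3cr1, P2ry12, Tmem119, Siglech and Selplg among the surface genes, C1qa, C1qb and C1qc among the complement genes, and Ctss, Laptm5 and Pld4 among the lysosomal and endosomal genes. No value of REPOP7 or REPOP10 enters that rule, although the lists themselves were drawn up with earlier results of these data known. Without the CD mouse marked 2M the rule kept all 11 and added Gpr34. The other 41 kept more than 25% of the CD level without microglia, for example Csf1r with 8.85 CPM in DEP14 against 17.1 CPM in CD. A further 50 genes lay under 1 CPM in CD, including Trem2 (0.643 CPM), Tyrobp (0.739 CPM), Itgam (0.672 CPM) and Spi1, the gene of PU.1 (0.294 CPM).

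Promoters of 8 of the 11 microglia-dependent genes were matched in RefSeq (GRCm38.p6), each from 250 bases before to 50 bases after the start. The 3 printed here stand for the lysosomal, complement and surface genes: a cathepsin, a complement subunit and a purinergic receptor. They read 5′ to 3′ on the strand of the gene, and capitals mark a match to a searched motif on either strand. The motifs were GAGGAAG (the PU.1 core), the composite of an ETS and an IRF site (EICE) and CACGTG (the E-box of MITF and TFEB).
Ctss, chr3:95526536-95526835, plus strand: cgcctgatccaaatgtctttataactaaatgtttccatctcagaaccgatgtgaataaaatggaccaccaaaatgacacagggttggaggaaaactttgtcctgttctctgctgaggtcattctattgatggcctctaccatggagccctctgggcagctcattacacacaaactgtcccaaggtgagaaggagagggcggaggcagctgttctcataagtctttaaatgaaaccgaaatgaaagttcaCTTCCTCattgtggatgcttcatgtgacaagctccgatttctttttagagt
C1qb, chr4:136886151-136886450, minus strand: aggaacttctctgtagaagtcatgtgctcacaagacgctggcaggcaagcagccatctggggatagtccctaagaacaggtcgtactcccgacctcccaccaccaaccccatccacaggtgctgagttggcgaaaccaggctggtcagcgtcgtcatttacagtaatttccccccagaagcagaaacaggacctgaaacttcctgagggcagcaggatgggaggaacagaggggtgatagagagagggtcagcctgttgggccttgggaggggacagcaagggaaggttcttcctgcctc
P2ry12, chr3:59262936-59263235, minus strand: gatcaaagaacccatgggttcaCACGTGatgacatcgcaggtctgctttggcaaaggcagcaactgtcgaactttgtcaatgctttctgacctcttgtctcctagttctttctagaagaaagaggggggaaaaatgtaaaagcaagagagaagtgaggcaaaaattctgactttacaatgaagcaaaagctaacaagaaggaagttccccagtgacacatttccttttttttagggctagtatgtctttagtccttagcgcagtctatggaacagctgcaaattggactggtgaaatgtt
The PU.1 core stood in 4 of the 8 promoters (Ctss, C1qc, Laptm5 and Pld4), against 13.6% of all 32851 promoters of the same length. In Ctss it covered the annotated start. The E-box stood in P2ry12 and Siglech, against 7.15% of all promoters, and the composite motif in none of the 8, against 2.72%. The C1qb promoter held none of the 3 motifs. A match describes the letters in this window and is no measurement of binding.

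Across all genes, no gene passed the threshold between REPOP7 and REPOP10. Of 24187 genes tested with edgeR's quasi-likelihood test, 0 were higher and 0 were lower at an FDR under 0.01 with a log2 fold change beyond 1 (0.0% called in each direction), and the smallest FDR (p adjusted over all 24187 genes) was 0.852, so the log2 fold changes below are given with their standard errors as descriptions and no gene is called changed. At an unadjusted p under 0.05, 595 genes were higher in REPOP10 (2.46% of those tested) and 633 were lower (2.62%). Without REPOP10 replicate 4, 23668 genes were tested and again 0 passed in either direction, with 605 higher (2.56%) and 713 lower (3.01%) at an unadjusted p under 0.05. DESeq2 called 0 genes too, with 321 higher and 325 lower at an unadjusted p under 0.05. Several microglia-dependent genes stood near the head of the list by p. Ctss had the smallest p of all genes that were higher in REPOP10, followed by C1qb and C1qa, and P2ry12 ranked 33 among those. Among all 24187 genes in either direction, Ctss ranked 3 by p, C1qb 5, C1qa 6 and P2ry12 66. Without replicate 4, Ctss ranked 8 by p among all 23668 genes in either direction, C1qa 40, C1qb 42 and P2ry12 159. The adjusted p of Ctss differed between tests. It was 0.00793 in edgeR's likelihood ratio test, 0.0138 in a quasi-likelihood fit of all 16 groups of the series and 0.598 in DESeq2, and in the likelihood ratio test without replicate 4 it was 0.193.

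A gene was tested if at least 0.5 of the mice of either group held a read of it. Of the 11 microglia-dependent genes, Tmem119, Siglech and Selplg passed this filter through REPOP10 alone, the group in which they were higher, so they are left out of the counts that follow and are described by their reads below. Of the other 8, which were detected in at least 0.5 of the REPOP7 mice, 6 were higher in REPOP10 at an unadjusted p under 0.05 and 0 lower, beside 2.15% and 2.78% of the 22762 genes detected in REPOP7 in the same way. Their median log2 fold change was 2.26, against -0.01 for those genes. In 4 of the 8 every REPOP10 mouse lay above every REPOP7 mouse, an arrangement that 0.303% of the genes detected in REPOP7 had. Among all tested genes 0.322% were arranged so (78 of 24187) and 0.31% the reverse way (75). The 4 were Ctss, C1qa, C1qb and P2ry12. Leaving out a REPOP10 mouse cannot bring in an overlap, and without replicate 4 no further gene of the 8 was arranged so, while the share was 0.703% of the genes detected in REPOP7 and 0.782% of all tested genes. Without that mouse, 5 of the 8 were higher at an unadjusted p under 0.05, beside 2.24% of the genes detected in REPOP7, with a median log2 fold change of 1.89.

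**Figure D1:**
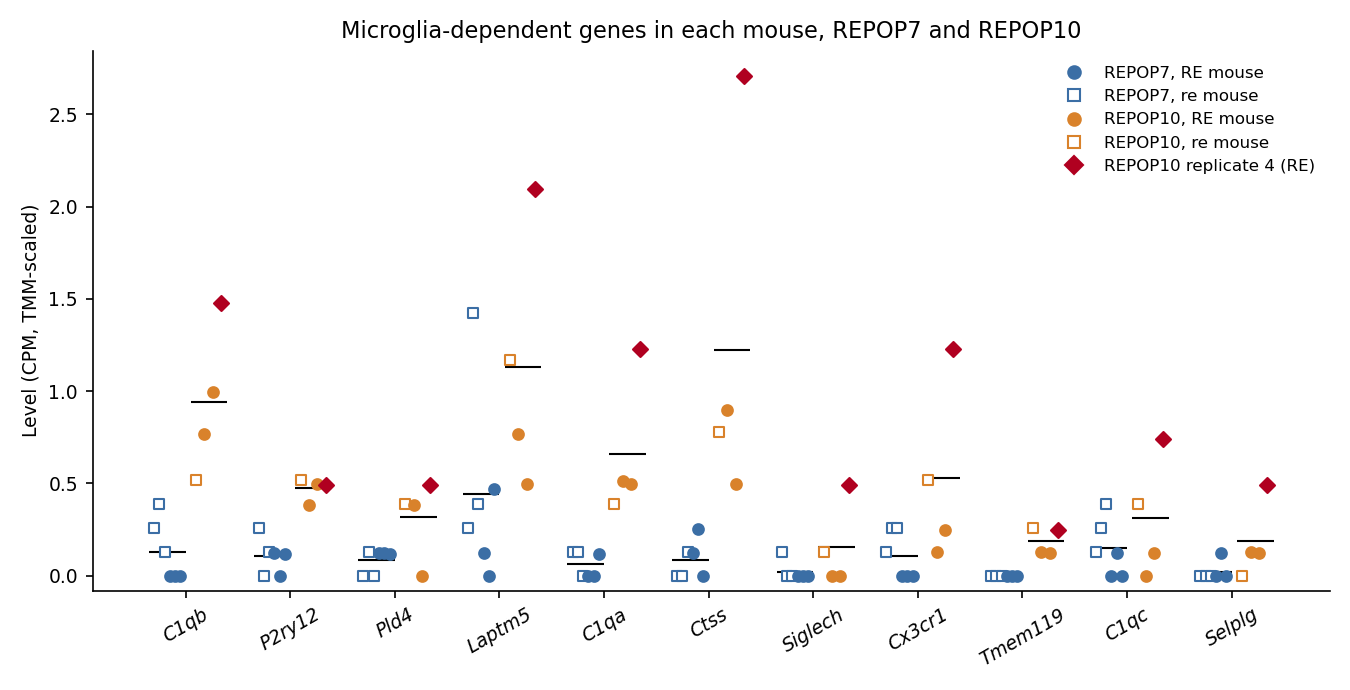
Level of each microglia-dependent gene in each mouse, in CPM on TMM-scaled libraries (y axis), with genes on the x axis in the order of their return. Blue points are the 6 REPOP7 mice and orange or red points the 4 REPOP10 mice, filled for suffix RE and open squares for re, the red diamond is REPOP10 replicate 4, and black lines are group means. For C1qb, P2ry12, C1qa, Ctss and Tmem119 all REPOP10 points lie above all REPOP7 points, and replicate 4 is the highest REPOP10 mouse for 9 of the 11 genes.

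Among the lysosomal genes, Ctss had the smallest p. It encodes cathepsin S, a protease that works in lysosomes and in antigen processing. Its reads in REPOP7 replicates 1 to 6 numbered 0, 0, 1, 1, 2 and 0, and in REPOP10 replicates 1 to 4 they numbered 6, 7, 4 and 22. The groups did not overlap, and replicate 4 held more Ctss reads than the other 3 REPOP10 mice together. The REPOP7 mean was 0.0844 ± 0.103 CPM (SD, n = 6). The REPOP10 mean was 1.22 ± 1.01 CPM (SD, n = 4), or 0.725 ± 0.206 CPM without replicate 4. The log2 fold change was 3.45 (SE 0.71, adjusted p = 0.852, edgeR), and 2.85 (SE 0.69) without replicate 4. On the summed reads of each group, 39 against 4, the ratio was 14.5 with a 95% counting interval of 5.24 to 55.9. Such intervals cover counting error only, since reads were not marked by molecule, and not the spread between mice. Laptm5, a transmembrane protein of lysosomes in blood cells, had 2, 11, 3, 1, 0 and 4 reads in REPOP7 and 9, 6, 4 and 17 in REPOP10. The groups overlapped, since REPOP7 replicate 2 lay above 3 of the 4 REPOP10 mice. The log2 fold change of Laptm5 was 1.55 (SE 0.60), and 1.08 (SE 0.62) without replicate 4. Pld4, an endolysosomal nuclease, had at most 1 read in any REPOP7 mouse and 3, 3, 0 and 4 reads in REPOP10, with a log2 fold change of 1.68 (SE 0.82). Gpnmb, a glycoprotein of phagocytes and of pigment cells, was not microglia-dependent by the rule and was highest in REPOP10 replicate 3, with 163 reads, against 17 to 63 in REPOP7 and 45, 56 and 27 in replicates 1, 2 and 4 (log2 fold change 1.06, SE 0.44).

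The complement subunits differed in their values. C1qa, C1qb and C1qc encode the 3 chains of C1q, the recognition molecule of the classical pathway, and lie next to each other on chromosome 4. C1qb had 2, 3, 1, 0, 0 and 0 reads in REPOP7 and 4, 6, 8 and 12 in REPOP10. C1qa had 1, 1, 0, 0, 0 and 1 reads in REPOP7 and 3, 4, 4 and 10 in REPOP10. Neither gene overlapped between the groups. The mean of C1qb was 0.129 ± 0.164 CPM in REPOP7 and 0.940 ± 0.407 CPM in REPOP10, with a log2 fold change of 2.79 (SE 0.66), and 2.55 (SE 0.71) without replicate 4. Leaving out each mouse in turn, it ran from 2.47 to 6.12. The highest value came without REPOP10 replicate 1, which left RE mice alone in REPOP10, while the RE mice of REPOP7 held 0 C1qb reads. For C1qa the log2 fold change was 2.99 (SE 0.71), and 2.61 (SE 0.73) without replicate 4. On the summed reads, the ratio was 7.45 for C1qb with a counting interval of 3.05 to 21.9, and 10.4 for C1qa with an interval of 3.11 to 54.6. C1qc had 1, 2, 3, 0, 1 and 0 reads in REPOP7 and 3, 0, 1 and 6 in REPOP10. Its groups overlapped (log2 fold change 1.35, SE 0.85, and 0.53 without replicate 4). The ratio of the summed C1qc reads was 2.13 with an interval of 0.731 to 6.59. In all 4 REPOP10 mice C1qb had regained a larger percentage of its CD level than C1qc, and in 3 of 4 C1qa had. The chains of the complement receptor CR3 were scarce. Itgam had 3 reads in REPOP10 replicate 4, 1 in replicate 2 and none in replicates 1 and 3, against 1 read in all of REPOP7. Itgb2 had 2, 2, 0 and 4 reads in REPOP10 against 3 reads in all of REPOP7 (log2 fold change 1.71, SE 0.92).

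Among the surface genes of resting microglia, the evenest values were those of P2ry12, the receptor by which microglia sense ADP. P2ry12 had 2, 0, 1, 1, 0 and 1 reads in REPOP7 and 4, 3, 4 and 4 in REPOP10. On so few reads this evenness is no measure of precision, since counting error alone would usually spread such counts more widely. Replicate 4 did not stand apart here, and the REPOP10 mean was 0.473 CPM with it and 0.467 CPM without it, against 0.105 ± 0.0966 CPM in REPOP7. The log2 fold change was 2.10 (SE 0.64), and 2.05 (SE 0.68) without replicate 4. P2ry12 lies within Med12l, which is read from the opposite strand and was at 44.1 CPM in REPOP7 and 42.6 CPM in REPOP10, and the counting was not stated to use strand. Tmem119, a membrane protein used to mark microglia, had 0 reads in all 6 REPOP7 mice and 2, 1, 1 and 2 reads in REPOP10. With 0 reads in REPOP7 and 6 in REPOP10 no fold is given, and all 3 REPOP10 mice other than replicate 4 held at least 1 read. Cx3cr1, the receptor for the neuronal chemokine CX3CL1, had 1, 2, 2, 0, 0 and 0 reads in REPOP7 and 4, 1, 2 and 10 in REPOP10. The groups overlapped, and within the RE mice the count was 0 in all 3 REPOP7 mice and 1, 2 and 10 in the REPOP10 mice. The log2 fold change of Cx3cr1 was 2.42 (SE 0.82), and 1.73 (SE 0.72) without replicate 4. Without REPOP10 replicate 1 it was 5.14, set against the 0 reads in the RE mice of REPOP7. Several genes overlap the annotated span of Cx3cr1, among them Wdr48 (121 and 125 CPM) and Gorasp1 (69.1 and 78.3 CPM). Siglech, a sialic acid-binding lectin, had a single read in REPOP7 and 1, 0, 0 and 4 reads in REPOP10, so most of its reads came from replicate 4. Selplg, the ligand of P-selectin, had a single read in REPOP7 and 0, 1, 1 and 4 reads in REPOP10. For Siglech and Selplg no fold is given, since both were tested through REPOP10 alone and replicate 4 held 4 reads of each.

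Ranked by the REPOP10 mean as a percentage of the CD mean, C1qb came first at 30.6 ± 13.3% (SD, n = 4), followed by P2ry12 at 29.3 ± 3.71% and Pld4 at 27.9 ± 19.1%. The small SD of P2ry12 rests on few reads per mouse and does not make its place better determined. Laptm5 stood at 24.8 ± 15.3%, C1qa at 18.1 ± 10.6% and Ctss at 17.5 ± 14.4%. Then came Siglech at 14.2 ± 21.2%, Cx3cr1 at 13.6 ± 12.6%, Tmem119 at 11.6 ± 4.48%, C1qc at 9.87 ± 10.3% and Selplg at 6.67 ± 7.62%. None of the 10 pairs of neighbours in this order was separated, since the ranges of the 4 mice overlapped in each. P2ry12 stood above Tmem119 in all 4 mice and above Cx3cr1 in 3 of 4, and C1qb, P2ry12 and Ctss each stood above Selplg in all 4. Without replicate 4, P2ry12 came first at 28.9%, C1qb second at 24.8% and Pld4 next at 22.7%, followed by Laptm5 at 17.8% and C1qa at 12.8%. Tmem119 then stood at 10.4% and Ctss at 10.4%, Cx3cr1 at 7.61%, C1qc at 5.40%, Siglech at 3.94% and Selplg at 3.02%. The first 5 genes were the same 5 with and without that mouse. They were also the first 5 among RE mice alone, where the divisor was the mean of the RE mice of CD. On that scale C1qb was at 29.7%, Laptm5 at 24.2%, P2ry12 at 22.4%, Pld4 at 20.7% and C1qa at 19.9%. For the same REPOP10 mice over the mean of all CD mice, C1qb was at 35.2% and P2ry12 at 28.3%. The leading genes changed under other choices. Without replicate 3 Pld4 came first at 37.2%, ahead of C1qb at 30.1%, and Ctss (20.9%) stood above C1qa (19.6%). By medians P2ry12 (42.6%) and Pld4 (30.04%) stood above C1qb (27.5%). These percentages divide by the CD median, which for P2ry12 was under the CD mean of 1.62 CPM (range 0.924 to 2.97 CPM). By FPKM Ctss was among the first 5 in place of C1qa. Without the CD mouse marked 2M the order of the 11 was the same, from 27.3% for C1qb to 6.66% for Selplg. In REPOP7 none of the 11 exceeded 9.73% of CD (Laptm5), and Ctss was at 1.21%, C1qa at 1.72%, C1qb at 4.22% and P2ry12 at 6.51%. The order by percentage and the order by fold change therefore differed. Ctss and C1qa were lowest of these in REPOP7 and had the larger ratios, while P2ry12, Pld4 and Laptm5 were already at 6.51%, 7.30% and 9.73%. In DEP14 these 3 were at 7.60%, 11.2% and 6.79% of CD.

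**Figure D2:**
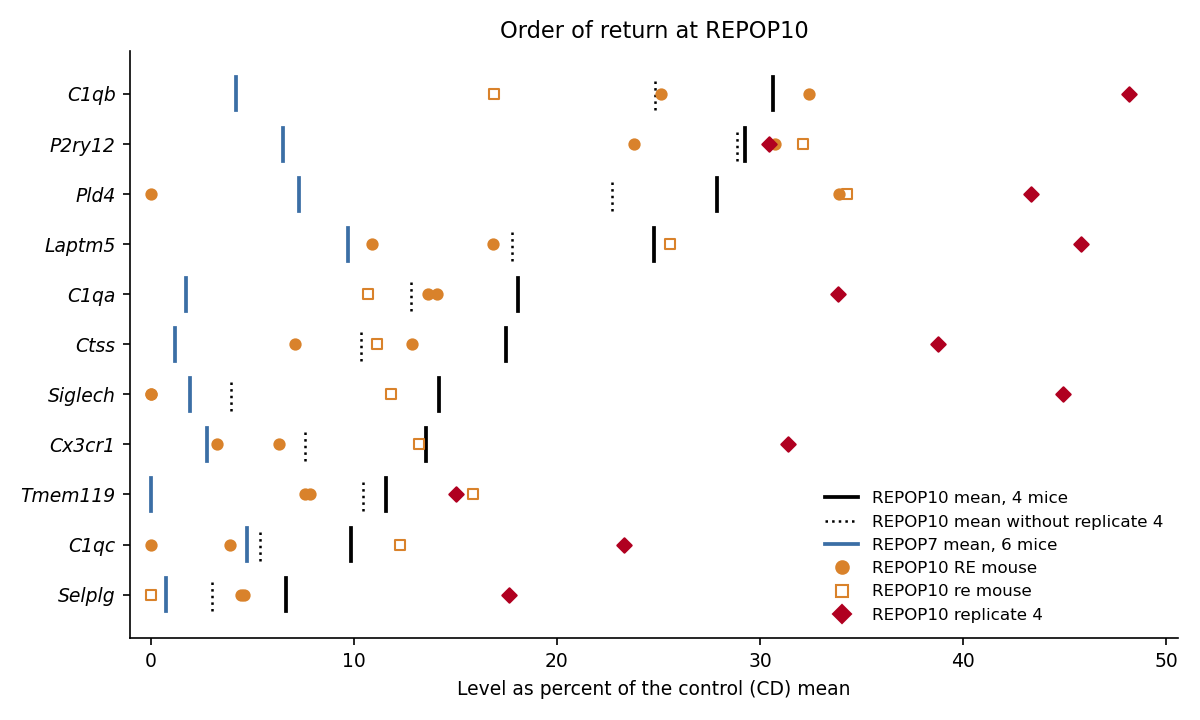
Level of each microglia-dependent gene in the REPOP10 mice as a percentage of the CD mean (x axis, linear), ordered by the mean of the 4 mice. Points are single mice, the red diamond is replicate 4, solid black lines are means of 4 mice, dotted lines are means without replicate 4 and blue lines are REPOP7 means. Replicate 4 lies at 48.2% for C1qb and 38.8% for Ctss, while P2ry12 is at 23.8 to 32.1% in all 4 mice.

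By day, the return of most of these genes was first met at REPOP10. A gene was counted as back on the first day on which at least 75% of the mice lay above the highest DEP14 mouse, provided that the next day met this too. Of the 11 genes, 0 were back at REPOP3, REPOP5 or REPOP7, 9 at REPOP10, and the other 2, Siglech and Selplg, at REPOP14. For the genes at 0 in every DEP14 mouse this asks only for a single read. With at least 2 reads in each such mouse as well, C1qc and Tmem119 moved to day 14 and Siglech to day 21. Asking for only 50% of the mice instead moved C1qb and Cx3cr1 to day 5, C1qc to day 7 and Siglech to day 10, and with FPKM Cx3cr1 moved to day 7, Pld4, Tmem119 and C1qc to day 14 and Siglech to day 21. The suffixes were unevenly spread, with 3 re mice of 6 in REPOP7 and 1 of 4 in DEP14 and the other repopulation groups used here. All 3 re mice of REPOP7 held reads of C1qb, Cx3cr1 and C1qc, which were at 0 in every DEP14 mouse. The RE mice of REPOP7 held no read of C1qb or Cx3cr1. Whether the day of return differed by suffix was not tested. By REPOP14 the order had changed. C1qc had gone from 9.87% of CD at REPOP10 to 103% and C1qb from 30.6% to 89.9%, while P2ry12 was at 28.9% and Siglech at 29.4%. At REPOP21 Pld4 (119%) and Ctss (100.1%) were at or above the CD mean, and the surface genes lay between 48.1% (Selplg) and 65.0% (Siglech).

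Summed over the 11 genes, the level was 1.29, 2.59, 1.43, 0.4999, 0.627 and 0.825 CPM in REPOP7 replicates 1 to 6, and 5.06, 4.11, 3.60 and 11.7 CPM in REPOP10 replicates 1 to 4. This corresponded to 4 to 20 reads per REPOP7 library and to 39, 32, 29 and 95 reads in the REPOP10 libraries. No REPOP10 mouse overlapped with a REPOP7 mouse, and replicate 4 was 2.31 times as high as the next REPOP10 mouse. The means were 1.21 ± 0.768 CPM in REPOP7 and 6.12 ± 3.77 CPM in REPOP10, a ratio of 5.05, and 4.26 ± 0.742 CPM without replicate 4, a ratio of 3.52. Within the RE mice the means were 0.651 CPM in REPOP7 and 6.47 CPM in REPOP10, a ratio of 9.94, and the single re mouse of REPOP10 was at 5.06 CPM against a mean of 1.77 CPM in the 3 re mice of REPOP7. The earlier days were near the depleted level, at 0.741 ± 0.551 CPM in DEP14, 0.938 ± 0.290 CPM in REPOP3 and 0.875 ± 0.606 CPM in REPOP5. The sum was 18.2% of the CD mean at REPOP10 (12.7% without replicate 4) and 63.2% at REPOP14, with 21.3 ± 3.47 CPM against 33.6 ± 5.201 CPM in CD. REPOP10 replicate 4, at 34.8% of CD, lay below the lowest REPOP14 mouse (18.5 CPM). The sum over all 102 myeloid-list genes was 609 ± 19.8 CPM in REPOP7 and 633 ± 34.4 CPM in REPOP10, and these groups overlapped. It was 627 CPM in DEP14 too, and Mef2c, which was at 169 CPM in DEP14, made up 25.9% of the sum in the 10 mice of REPOP7 and REPOP10.

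**Figure D3:**
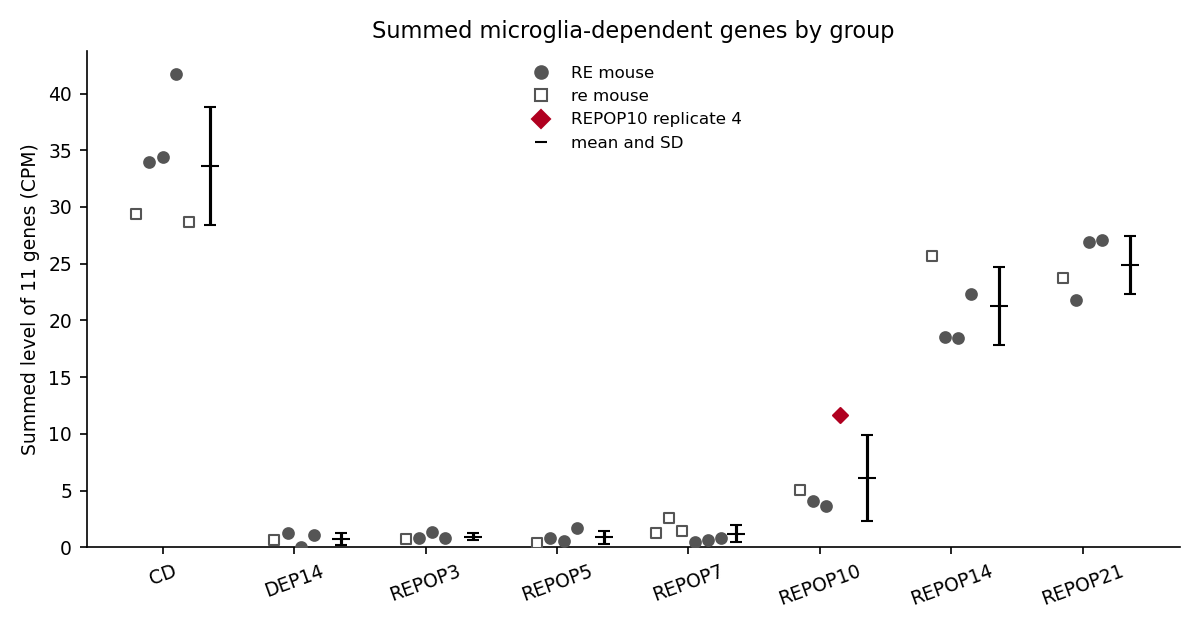
Sum of the 11 microglia-dependent genes in CPM (y axis, linear) in the control, depleted and repopulated groups. Points are single mice, filled for suffix RE and open for re, the red diamond is REPOP10 replicate 4, and bars give the mean and SD of each group. REPOP3 and REPOP5 lie near DEP14. The 3 re mice of REPOP7 lie above the highest DEP14 mouse (1.25 CPM), at up to 2.59 CPM. All 4 REPOP10 mice lie above every mouse of these groups, and REPOP14 reaches 63.2% of the CD mean.

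Over all 7 myeloid lists, 91 of 102 genes were tested, 17 of them only through REPOP10. Of the other 74, 8 were higher and 0 lower at an unadjusted p under 0.05, beside 2.15% and 2.78% of all genes detected in REPOP7. Their median log2 fold change was 0.22, and 0.15 without replicate 4, when 8 of 74 were higher. Outside the microglia-dependent genes, 2 of 66 were higher (Gpnmb and Ncf1), a share of 3.03%, and in none of the 66 were the groups free of overlap. Tyrobp, the signalling adaptor of TREM2, was tested only through REPOP10. It had 7 reads in REPOP10 replicate 4 and 0, 1 and 1 in the other REPOP10 mice, against 1 read in all of REPOP7. Trem2 itself had 1 read in REPOP10 and 2 in REPOP7. Ncf1, a subunit of the phagocyte NADPH oxidase, had 12, 3, 8 and 11 reads in REPOP10 and 2 to 10 in REPOP7 (log2 fold change 0.89, SE 0.40, and 0.69, SE 0.41, without replicate 4). Its catalytic subunit Cybb had 3, 2, 4 and 3 reads against 0 to 2 (log2 fold change 1.25, SE 0.62, and 1.26, SE 0.65, without replicate 4). Of the Fc receptors, Fcgr3 had 2 reads in REPOP10 and 1 in REPOP7. The phosphatase gene Ptpn6 had 3, 6, 5 and 5 reads against 1 to 4 (log2 fold change 0.85, SE 0.47), and Dock2, a Rac activator of leukocytes, had 2, 2, 4 and 7 against 0 to 2 (log2 fold change 1.23, SE 0.61). In the list around the CSF1 receptor, 0 of 7 tested genes had a p under 0.05, and 1 had without replicate 4, Csf1r itself. Csf1r had 80, 92, 86, 83, 78 and 81 reads in REPOP7 and 99, 86, 105 and 81 in REPOP10, a log2 fold change of 0.20 (SE 0.12), and 0.25 (SE 0.11) without replicate 4, on a level that depletion itself left at 8.85 CPM. Tgfbr2, a chain of the TGF-beta receptor, differed by 0.32 (SE 0.18), and Il6ra, a chain of the interleukin 6 receptor, by 1.16 (SE 0.66). None of 9 tested transcription factor genes had a p under 0.05, and their median log2 fold change was 0.02. Sall1, a factor of microglial identity, had 5, 3, 4 and 8 reads in REPOP10 against 3 to 11 in REPOP7 (log2 fold change -0.50, SE 0.42). Tal1, a blood lineage factor, differed by 0.92 (SE 0.69).

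**Figure D4:**
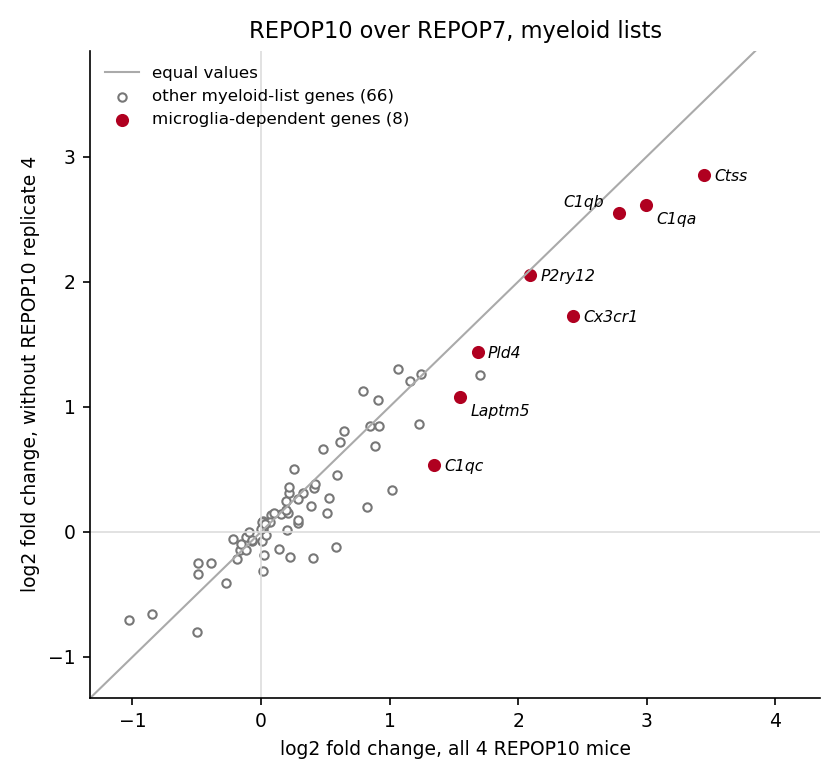
Log2 fold change of REPOP10 over REPOP7 with all 4 REPOP10 mice (x axis) and without replicate 4 (y axis), for myeloid-list genes detected in at least 0.5 of the REPOP7 mice. Filled red points are 8 microglia-dependent genes, open points are 66 other genes and the grey line marks equal values. P2ry12, Ctss, C1qa and C1qb lie above 2 on both axes, while C1qc lies well under the line.

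Most markers of other immune cells had few reads. Of 14 genes of border macrophages, the macrophages of meninges, vessels and ciliary body, 3 were at 0 in all 10 mice, among them the defining chemokine gene Pf4. The summed level of the list was 20.6 to 25.0 CPM in REPOP7 and 23.5 to 27.0 CPM in REPOP10, and 67.9% of it was Lyve1, a receptor for hyaluronan that lymphatic vessels carry as well (log2 fold change 0.14, SE 0.10). Mrc1 had 3 reads in REPOP7 and 1 in REPOP10, and the 2 reads of Cd163 were both in REPOP10 replicate 1. F13a1 had 1 read in REPOP7 and 2 in REPOP10, and Ms4a7 had 2, 6, 2 and 6 reads in REPOP10 against 1 to 4 (log2 fold change 0.60, SE 0.53). Of 11 genes of monocytes and neutrophils, 4 were at 0 in all 10 mice, among them Ly6c2, Ccr2 had 1 read in all, and Mmp9, a protease that is not limited to these cells, made up 98.7% of the list's level (12.9 to 19.7 CPM in REPOP10 and 14.2 to 21.9 CPM in REPOP7). S100a8 had 2 reads in each group. Among 12 lymphocyte genes, 3 were at 0, including Cd3e, and the list's level was 0.994 to 2.47 CPM in REPOP10 and 0.875 to 2.06 CPM in REPOP7. Of 6 tested lymphocyte genes, 1 was higher at an unadjusted p under 0.05, the B cell gene Cd79a (log2 fold change 1.21, SE 0.57), beside 2.46% of all genes tested, and 0 of 6 were without replicate 4. The B cell gene Ighm differed by 1.09 (SE 0.67).

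Of 21 tested genes of cell division, 0 had a p under 0.05, beside 2.46% of all genes on the higher and 2.62% on the lower side, and the median log2 fold change was -0.07. Top2a, the DNA topoisomerase of dividing cells, was the exception in arrangement, with 1, 1, 0, 1, 0 and 0 reads in REPOP7 and 1, 3, 2 and 2 in REPOP10, where the smallest REPOP10 level (0.1298 CPM) lay just above the highest REPOP7 level (0.1294 CPM), each on a single read, an arrangement shared by 0.322% of all tested genes (log2 fold change 1.71, SE 0.82, and 1.73, SE 0.86, without replicate 4). Mki67, a marker of cycling cells, had 1, 1, 0 and 3 reads against 4 in all of REPOP7 (log2 fold change 0.94, SE 0.98, and 0.21 without replicate 4). It was at 0.157 CPM in REPOP10 and 0.693 CPM in REPOP14. Aurkb, a mitotic kinase, had 3 reads against 1, and Mcm7, a helicase subunit, differed by -0.13 (SE 0.10).

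Ligands of microglial receptors and chemokines formed a further list. Csf1 was at 6.99 ± 0.753 CPM in REPOP7 and 7.29 ± 0.878 CPM in REPOP10 (log2 fold change 0.09, SE 0.14), and Il34 at 4.99 ± 0.756 and 4.30 ± 0.796 CPM (-0.12, SE 0.16). Cx3cl1, the ligand of CX3CR1, was at 109 ± 15.6 and 97.0 ± 17.6 CPM (-0.08, SE 0.08). Of 10 genes of this list that were detected in REPOP7, 1 was higher at an unadjusted p under 0.05, beside 2.15% of such genes. It was Cxcl12, a chemokine of stromal and vascular cells, at 19.8 ± 3.38 CPM in REPOP7 and 23.3 ± 1.29 CPM in REPOP10 (0.30, SE 0.10), and Ccl2, a monocyte chemokine that was tested only through REPOP10, had 0 reads in REPOP7 and 1, 1, 0 and 1 in REPOP10, too few for a fold. Tgfb3, a TGF-beta ligand, differed by 0.16 (SE 0.09).

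Among interferon-responsive genes, 1 of 19 had a p under 0.05, beside 2.62% of all genes on the lower side. It was Irf7, at 14.8 ± 4.04 CPM in REPOP7 and 11.2 ± 2.31 CPM in REPOP10 (-0.40, SE 0.19). Ifi44 differed by 0.92 (SE 0.48) and the GTPase gene Gbp2 by 0.44 (SE 0.24). In the list of antigen presentation and activation, 2 of the 12 genes detected in REPOP7 were higher at an unadjusted p under 0.05 (B2m and H2-Eb1), beside 2.15% of such genes. B2m, the light chain of MHC class I, had 127, 166, 259 and 156 reads in REPOP10 and 100 to 161 in REPOP7 (0.38, SE 0.14). Of the class II genes, Cd74, which was tested only through REPOP10, had 5, 0, 5 and 1 reads against 0 to 3, and H2-Eb1 had 1, 1, 4 and 5 against 0 to 1 (1.68, SE 0.76).

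RNA of pigmented and ciliary tissue differed between mice of the same group. Optc, a secreted protein of the ciliary epithelium, had 89 and 132 reads in REPOP7 replicates 2 and 3 and 105 and 149 in REPOP10 replicates 2 and 3, against 8 to 10 in the other 6 mice. Dct, an enzyme of melanin synthesis, had 71 reads in REPOP7 replicate 2 and 87 and 203 in REPOP10 replicates 2 and 3, and 3 to 26 elsewhere. The sum over Dct, Tyrp1, Tyr, Pmel, Mlana and Optc was 4.39 to 28.5 CPM in REPOP7 and 5.97, 35.0, 59.7 and 5.42 CPM in REPOP10 replicates 1 to 4. The highest sums belonged to the 2 REPOP10 mice with the lowest sums of microglia-dependent genes, 4.11 and 3.60 CPM, and replicate 4, with the highest, was among the lowest in pigment genes. In REPOP7 the 2 mice with the highest pigment sums, replicates 2 and 3 at 28.5 and 22.4 CPM, also had the highest sums of microglia-dependent genes, 2.59 and 1.43 CPM. Of the 12 genes of pigment epithelium and ciliary body, 0 were at a p under 0.05, beside 2.46% of all genes on the higher side, and without replicate 4 there were 4 higher, beside 2.56%. Dct differed by 1.51 (SE 0.75), Tyrp1 by 1.18 (SE 0.56) and Tyr by 1.33 (SE 0.69). B2m, Gpnmb and Gfap were highest in REPOP10 replicate 3 as well. With the 4 mice of high Optc marked by a further term, chosen after seeing the data, the log2 fold change was 0.31 for B2m, 0.76 for Gpnmb and 0.12 for Gfap, against 0.38, 1.06 and 0.34 without the term. Without those 4 mice it was 0.19 for B2m, 0.057 for Gpnmb and 0.16 for Gfap. With the term Ctss had a log2 fold change of 3.87 (adjusted p = 0.330, edgeR) and C1qb of 2.78 (adjusted p = 0.971).

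**Figure D5:**
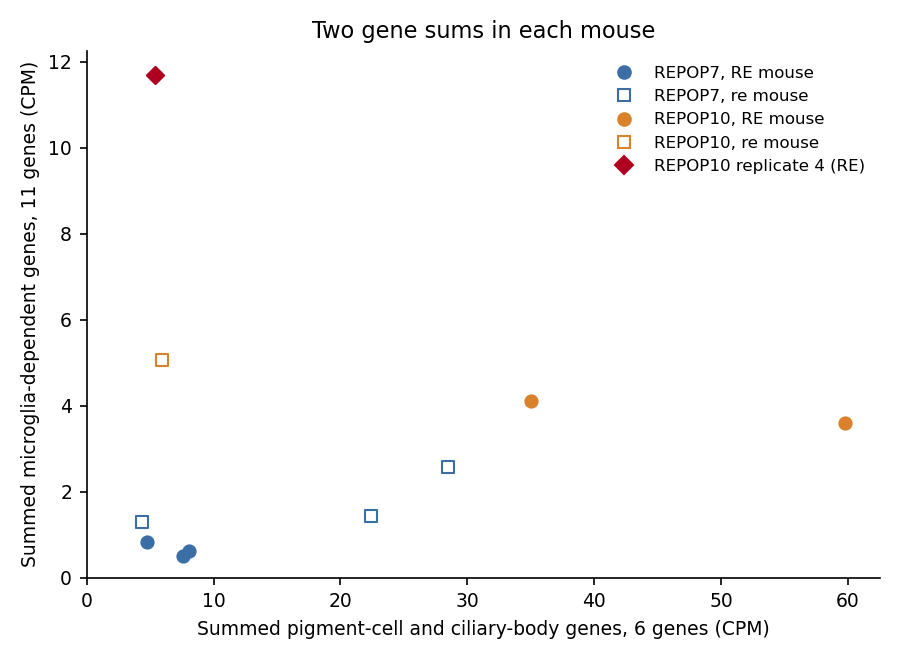
Sum of the 11 microglia-dependent genes (y axis) against the sum of 6 genes of pigment cells and ciliary body (x axis) in each of the 10 mice, both in CPM on linear axes. Colours and shapes mark the group, the suffix and REPOP10 replicate 4. Replicates 2 and 3 of REPOP10 lie far to the right at 35.0 and 59.7 CPM, and replicate 4 lies at the top left.

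Genes of the resident retinal cells were tested as well. Of 16 genes of Müller glia and astrocytes, 1 was higher and 1 lower at an unadjusted p under 0.05, and the shares of all tested genes, 2.46% and 2.62%, stand beside this and the next counts. Serpina3n, a gene of reactive glia, had 31, 69, 86 and 39 reads in REPOP10 and 19 to 72 in REPOP7 (0.76, SE 0.35), and Glul, the glutamine synthetase of Müller glia, was at 1698 ± 70.8 CPM in REPOP7 and 1499.6 ± 118 CPM in REPOP10 (-0.15, SE 0.06). Gfap, the intermediate filament of stressed glia, was at 17.1 ± 4.16 and 22.6 ± 8.40 CPM (0.34, SE 0.22), and Rlbp1, a retinoid carrier of Müller glia, differed by 0.11 (SE 0.07). Of 20 photoreceptor genes 2 were higher, Rcvrn, a calcium sensor (0.26, SE 0.10), and the cone gene Pde6h (0.19, SE 0.08), and Pde6c differed by 0.19 (SE 0.10). In 1 of the 20 every REPOP10 mouse lay below every REPOP7 mouse, as in 0.31% of all tested genes. Of 21 genes of inner neurons 1 was higher, the ganglion cell factor Pou4f1 (0.21, SE 0.09). Onecut1 differed by 0.37 (SE 0.22) and the glycine transporter gene Slc6a9 by -0.17 (SE 0.10). Among 9 tested oligodendrocyte genes, which mark optic nerve in a retinal sample, Mbp was at 38.7 ± 2.40 CPM in REPOP7 and 35.0 ± 0.987 CPM in REPOP10 (-0.16, SE 0.08), Mal differed by -0.44 (SE 0.26) and Opalin had 2 reads. Of 12 vascular genes, Cdh5, the cadherin of endothelial junctions, had 40, 43, 41, 39, 47 and 33 reads in REPOP7 and 64, 46, 57 and 54 in REPOP10, without overlap in CPM, as in 0.322% of all tested genes (0.50, SE 0.15, and 0.50, SE 0.16, without replicate 4). Cldn5 differed by 0.28 (SE 0.22) and Vwf by 0.22 (SE 0.12). The lens crystallin genes Crybb2, Cryaa and Cryba1 had 0 to 10 reads and were highest in REPOP7 replicates 1 and 4. Haemoglobin genes were highest in REPOP7 replicate 6, with 23 reads of Hba-a1 against 0 to 6 in the other 9 mice, and Hba-a2 and Hbb-bt likewise.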

How the data were processed

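Retinal RNA was read on a BGISEQ-500 in single-end reads of 50 bases. The deposited counts are reads per gene that the authors obtained with HTSeq after HISAT2 alignment to mm10, and the deposited FPKM values are theirs from StringTie. Versions and strand settings are not given in the sources used here. The labels name poly-T beads, while the paper's methods name polyA selection or rRNA removal. Genes were placed with GENCODE M21 on GRCm38, which held 50462 of 50686 identifiers. No column was left unmapped.

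REPOP10 and REPOP7 were compared with edgeR 4.0.16 (R 4.3.3), with TMM normalization, the title suffix and the group as terms, and tested by quasi-likelihood. A gene was tested if a share of at least 0.5 of the mice in REPOP7 or in REPOP10 had a count of 1 or more. Standard errors were derived from the log2 fold change and its F statistic. P-values were adjusted over all genes by Benjamini-Hochberg. CPM values use TMM factors over all 65 mice, and percentages of CD use group means, except where medians are named. Percentages among RE mice alone divide by the mean of the RE mice of CD. Counting intervals are exact binomial intervals at 95% (Clopper-Pearson) on summed reads. DESeq2 1.42.0 was an alternative. Python 3.11.15 with scipy 1.17.1, pandas 2.3.3, numpy 2.4.6 and matplotlib 3.10.9 made the tables and plots.

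The replicate numbers are those in the descriptions of the samples. No 2 libraries of a group agreed within sampling noise (chi-square per degree of freedom of at least 1.99).

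The named genes are the microglia-dependent genes, a fixed set of markers and at most 3 genes of smallest p in each of 22 lists. Some genes of these lists are not reported here. Counting list members only among genes detected in REPOP7 was chosen after seeing the data. The members and lists were chosen with earlier results of these data known.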

Additional observations from a re-analysis of the deposited data

Results flagged for a closer look

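Single mice far from the rest of their group were looked for in 74 sets of values with Dixon's test, and 7 were found. The test's rate of about 5% holds for normally distributed values, which sets of a few reads are not, so the number found cannot be set against it. Where 1 mouse alone held a read, as for Siglech and Selplg, its gap filled the whole range and the flag was fixed in advance. REPOP10 replicate 4 had 1.23 CPM of C1qa, against 0.513 CPM in the next REPOP10 mouse. REPOP7 replicate 2 had 1.42 CPM of Laptm5, against 0.472 CPM in the next REPOP7 mouse. Siglech was at 0.129 CPM in REPOP7 replicate 1 and Selplg at 0.125 CPM in REPOP7 replicate 5, each a single read where the other 5 mice had 0. The summed level of the recruitment ligands was 415 CPM in REPOP10 replicate 1, against 389.7 CPM in the next mouse. The summed level of the genes of inner neurons was lowest in REPOP7 replicate 6, at 3367 CPM against 3536 CPM, and the same mouse had the highest summed level of erythroid genes, at 24.8 CPM against 6.07 CPM. No cause of these values was tested.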

How the results depend on the processing

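The direction of the 8 microglia-dependent genes detected in REPOP7 was the same under every alternative in which they were tested. For Tmem119, Siglech and Selplg, tested only through REPOP10, the filter itself favours that direction. At the same FDR and fold threshold, edgeR's likelihood ratio test called 1 gene higher (Ctss, FDR 0.00793) and 1 lower (the pseudogene Gm1821). Without a gene filter the quasi-likelihood test called 13 higher, among them Ctss, C1qb, Gpnmb and Dct, and 5 lower. The cause was not tested. Leaving out each mouse in turn, 0 genes were called higher and 0 to 1 lower (Gm1821, without REPOP7 replicate 6), and at an unadjusted p under 0.05 the count ran from 416 to 990 higher and from 442 to 976 lower. At that p, DESeq2 gave 321 higher and 325 lower. Without REPOP10 replicate 4, DESeq2 gave 281 and 370, and a fit without the suffix 327 and 351. Without the 4 mice of highest Optc, an alternative chosen after seeing the data, the counts were 227 and 183.

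Whether mice of the same replicate number belonged together cannot be settled from these values, and no pairing was used in the main comparison. The correlation of same-numbered deviations was not above 0.1 in every pair. It was 0.742, -0.461, -0.216 and 0.546 for numbers 1 to 4, of which 1 and 4 also share a suffix, and with the suffix removed it was -0.237, 0.304, 0.152 and -0.179. With the number as a replicate block in place of the suffix, 1945 genes were higher and 1855 lower at an unadjusted p under 0.05. With the replicate block beside the suffix these were 313 and 327, and 2 genes were called higher (Gm21887 and Slc15a2) and 5 lower. No microglia-dependent gene was called under either replicate block.

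Some named genes changed sign. With the replicate block beside the suffix the log2 fold change was 0.12 for Sall1, -0.13 for Csf1, 0.0056 for Mmp9, -2.303 for S100a8, -0.30 for Dct and -0.029 for Tyr. With the replicate block in place of the suffix it was -0.043 for Csf1, 0.046 for Mcm7, 0.093 for Mal and 0.18 for Hbb-bt. Without the 4 mice of highest Optc it was -0.044 for Csf1, -2.64 for S100a8, -0.072 for Dct and -0.49 for Tyr. Without REPOP10 replicate 4, Mmp9 was at 0.0055 in the quasi-likelihood test, 0.0056 in the likelihood ratio test and 0.0077 in DESeq2. Leaving out each mouse, Mmp9 ran from -0.11 to 0.028, S100a8 from -0.071 to 0.90 and Hba-a2 from -1.84 to 0.46.

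In the order of return, P2ry12 stood at 22.4% in RE mice (over the RE mice of CD), 42.6% by medians and 19.0% by FPKM. Leaving out each REPOP10 mouse kept C1qb between 24.8% and 35.2%, P2ry12 between 28.3% and 31.1%, Pld4 between 22.7% and 37.2% and Ctss between 10.4% and 20.9%. The day of return was less firm. Asking for only 50% of the mice, it was day 5 for C1qb and Cx3cr1, day 7 for C1qc and day 10 for Siglech. With 2 reads asked for as well, it was day 14 for Tmem119 and C1qc and day 21 for Siglech. With FPKM it was day 7 for Cx3cr1, day 14 for Pld4, Tmem119 and C1qc, and day 21 for Siglech. The summed myeloid level had a ratio of REPOP10 over REPOP7 of 1.04 over the 102 genes (1.02 to 1.06 without each mouse) and 5.05 over the 11, which became 9.94 in RE mice and 3.52 to 6.54 without each mouse. At this depth a single read was 0.12 to 0.13 CPM, so levels under about 0.4 CPM rest on 3 reads or fewer.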

Other observations

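Outside the gene lists, the genes below were chosen after their values were seen, by small p or lack of overlap, and none passed the FDR threshold (0.852 or above). Usp2, a deubiquitinase gene, had 1302, 1792, 1374, 1956, 1733 and 2359 reads in REPOP7 and 1322, 1213, 1187 and 1150 in REPOP10 (log2 fold change -0.54, SE 0.11 in edgeR, and -0.50, SE 0.13, without replicate 4). It was at 171 CPM in CD, 220 CPM in REPOP7, 154 CPM in REPOP10 and 185 CPM in REPOP14. Foxo3, a stress-responsive transcription factor, was at 155 ± 14.1 CPM in REPOP7 and 124 ± 12.1 CPM in REPOP10 (-0.27, SE 0.07). Slc31a2, a copper transporter, was at 169.6 ± 27.7 and 143 ± 11.5 CPM (-0.32, SE 0.07). Cenpa, the histone variant of centromeres, had 33 to 40 reads in REPOP7 and 20, 24, 22 and 28 in REPOP10, without overlap (-0.66, SE 0.17). Otulinl had 21 to 31 reads against 31, 44, 50 and 51 (0.64, SE 0.16).

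Slc15a2, a peptide transporter that microglia and other cells carry, had 162 to 374 reads in REPOP7 and 370, 874, 350 and 999 in REPOP10, so replicates 2 and 4 stood apart from replicates 1 and 3 (1.05, SE 0.27). Malat1, a nuclear non-coding RNA, was at 1159 ± 190.1 CPM in REPOP7 and 1460.2 ± 109 CPM in REPOP10 (0.39, SE 0.10). The photoreceptor gene Pdc was at 1912 ± 467 and 2852 ± 894 CPM (0.35, SE 0.09), and differed by suffix, with 11016 to 12121 reads in the 4 re mice and 17287 to 28667 in the 6 RE mice. The pseudogene Gm1821 had the smallest p of all genes tested, on 6 to 310 reads in REPOP7 and 6 to 14 in REPOP10. As a pseudogene, it may share reads with a parent gene.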
